A study of Sus scrofa with 20 samples.

Results

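The genes of the urea cycle and of ammonia handling were followed in liver and subcutaneous backfat of Nanchukmacdon pigs, a Korean breed. The set was chosen by gene symbol and held 10 genes: NAGS, CPS1, OTC, ASS1, ASL, ARG1, ARG2, SLC25A15, GLUL and GLUD1. Of these, 9 of 10 were matched to a pig Ensembl identifier among the 31907 genes of the count table, while GLUL (glutamine synthetase) was not matched and was not analysed here. The series comprised 20 samples, of which the 10 RNA-seq libraries were used: 5 of backfat and 5 of liver, from wild-type animals with a normal disease state. The labels gave an age of 22 months for both tissues, with no treatment, and the study's methods described the animals as 5 boars, with a different average age. RNA was taken from small pieces of bulk tissue, so that a lower level may reflect fewer cells of a type or less RNA per cell, which cannot be told apart. Libraries are named by tissue and by the animal number in the column headers (65, 67, 69, 71 and 72).

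The urea cycle turns ammonia, released when amino acids are broken down, into urea for excretion. In mammals the full cycle runs mainly in hepatocytes. Its first steps lie in the mitochondrion: glutamate dehydrogenase (GLUD1) releases ammonia from glutamate, NAGS makes the N-acetylglutamate that CPS1 needs for activity, CPS1 joins ammonia and bicarbonate into carbamoyl phosphate, OTC transfers it to ornithine to give citrulline, and SLC25A15 exchanges ornithine and citrulline across the inner membrane. ASS1, ASL and ARG1 then act in the cytosol, and ARG1 releases urea and regenerates ornithine. ARG2 is a mitochondrial arginase made in many tissues. ASS1 and ASL are also used outside the liver, where they remake arginine from citrulline.

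Library totals ran from 43820042 to 61772737 counts. Hepatocyte markers were high in all liver libraries and adipocyte markers in all backfat libraries, as the labels state: the 8 hepatocyte markers summed to 22707 to 104263 CPM (each count divided by its library total and scaled to 1e6) in liver and 202 to 741 in backfat, and the 6 adipocyte markers to 11053 to 17653 in backfat and 9.62 to 11.3 in liver. Liver 67 stood apart, with 44.5% of its counts on mitochondrial genes against at most 20.2% in the other libraries. It also had the lowest hepatocyte marker sum of the livers, 97.4 CPM for the skeletal muscle markers against at most 0.958 in the other livers, and 1283 for the red cell markers against at most 284. Only 2 of the 5 listed skeletal muscle markers were in the count table. Among the backfats, backfat 69 had the highest hepatocyte marker sum, 741 against at most 296. Marker sums are per library total, while the levels of single genes below are CPM after TMM scaling, which corrects for differences in RNA composition.

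All 9 matched genes passed the filter on low counts, which left 16275 genes to test, and 8 of the 9 were called higher in liver at a false discovery rate (FDR) of at most 0.05 and at least 2 log2 units. The same call was made for 11.2% of all tested genes. None of the 9 was called higher in backfat, a call made for 11.1% of all genes. By the FDR alone 9 of 9 were higher in liver, beside 27% of all genes, and 0 of 9 were higher in backfat, beside 28%. In 8 of 9 the 5 liver values and the 5 backfat values did not overlap, with liver above, a pattern found for 19.7% of all tested genes, and in 0 of 9 backfat lay above without overlap, which was found for 22.9%. The exception was ARG2. The median log2 fold change, liver over backfat, was 5.34 over the 9 genes and -0.00014 over all tested genes. Without both backfat 69 and liver 67, a comparison added after seeing the data, 8 genes were again called for liver and 0 for backfat.

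**Figure D1:**
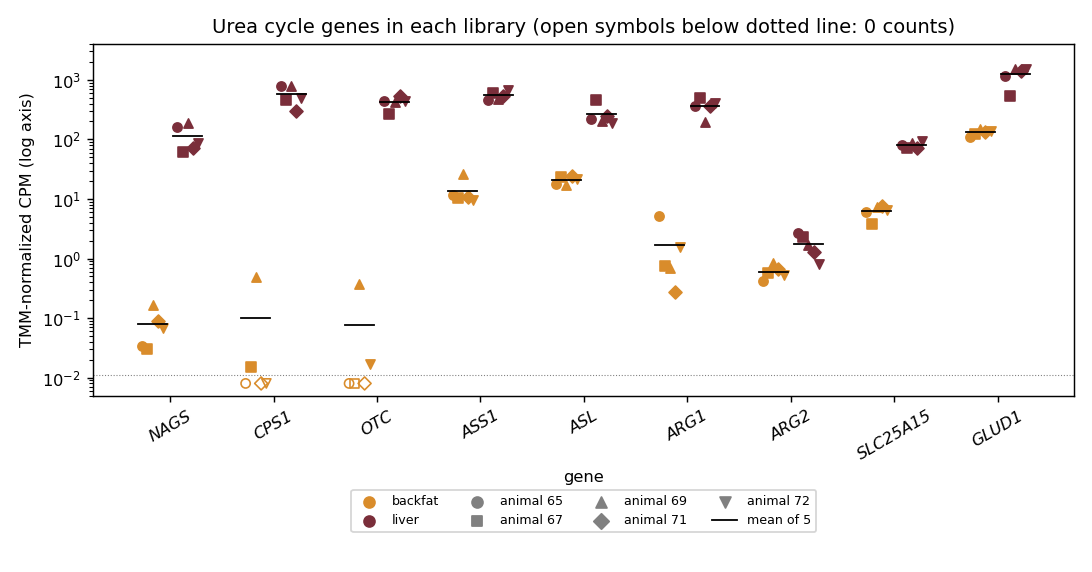
TMM-normalized CPM (log axis) of the 9 genes in each of the 10 libraries, coloured by tissue and with the symbol giving the animal; black bars are means of 5 libraries and open symbols are 0 counts. The liver points lie above the backfat points for every gene except ARG2, where they overlap, and backfat 69 is the one backfat library with over 1 count of CPS1 or OTC.

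The sequences before the start sites differed widely in CG content. In the 250 bases before the start of the RefSeq gene model (assembly Sscrofa11.1, the build of the count table), CPS1 had 0 CG dinucleotides, ARG1 1, NAGS 4, OTC 6, ASL 16, ASS1 18, ARG2 19, SLC25A15 26 and GLUD1 45. Over 19556 such windows the median was 12, with quartiles of 4 and 22, so that 95.8% of windows held more CG than CPS1 and 1.2% held more than GLUD1. The NAGS model starts at its coding sequence, and its window may therefore not be the promoter. ASS1, ARG1 and SLC25A15 have 3 transcript starts each and ARG2 has 2. For these genes only the window before the outermost start was read. Shown are the extremes CPS1 (chr15:113209788-113210037, plus strand), ARG1 (chr1:32028984-32029233, minus strand) and GLUD1 (chr14:88005376-88005625, minus strand), with ASL (chr3:16637231-16637480, plus strand) between them, each written 5′ to 3′ on the strand of the gene with every CG in capitals.
CPS1: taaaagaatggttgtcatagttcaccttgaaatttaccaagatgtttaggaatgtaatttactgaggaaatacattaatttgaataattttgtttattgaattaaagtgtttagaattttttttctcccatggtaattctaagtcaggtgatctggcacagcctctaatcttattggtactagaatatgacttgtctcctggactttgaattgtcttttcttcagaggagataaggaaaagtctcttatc
ARG1: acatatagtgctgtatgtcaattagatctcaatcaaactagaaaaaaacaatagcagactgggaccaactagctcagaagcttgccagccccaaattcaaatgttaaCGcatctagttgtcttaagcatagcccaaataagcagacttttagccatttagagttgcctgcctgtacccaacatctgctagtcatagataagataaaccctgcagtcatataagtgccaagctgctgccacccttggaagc
ASL: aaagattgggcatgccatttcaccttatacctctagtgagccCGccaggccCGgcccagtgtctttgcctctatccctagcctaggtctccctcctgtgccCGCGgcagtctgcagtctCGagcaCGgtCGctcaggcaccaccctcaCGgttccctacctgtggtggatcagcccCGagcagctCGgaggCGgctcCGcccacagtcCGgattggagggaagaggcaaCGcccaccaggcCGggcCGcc
GLUD1: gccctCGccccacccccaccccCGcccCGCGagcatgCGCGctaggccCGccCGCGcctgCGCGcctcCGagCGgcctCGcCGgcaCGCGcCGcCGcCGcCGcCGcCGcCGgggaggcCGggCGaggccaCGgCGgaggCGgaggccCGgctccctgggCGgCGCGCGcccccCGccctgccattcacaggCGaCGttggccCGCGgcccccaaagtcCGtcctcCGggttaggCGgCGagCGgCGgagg
The genes with the fewest CG, CPS1, ARG1, NAGS and OTC, were also the lowest of the set in backfat per length of exons. GLUD1, with the most CG, and ASL were the 2 genes at the highest level there (values below). The 2 orders were not the same throughout, since SLC25A15, with 26 CG, lay below ASL and ASS1. With the longest transcript as the length, ARG1 lay above ARG2, which had 19 CG. A link between the CG count and the level was not tested. A search of both strands found the letters CCAAT in CPS1, ASL and ARG2, beside 31.9% of all windows, and the HNF4 element letters CAAAGTC in CPS1 and GLUD1, beside 2.93%. The GC box letters GGGCGG were found in ASS1, ASL, ARG2, SLC25A15 and GLUD1, beside 45.9% of windows, and the cAMP response element letters TGACGTC were found only in ARG2, on both strands of one palindrome, beside 3.043%. Neither the TATA box letters TATAAA (9.767% of windows) nor the glucocorticoid half-site letters TGTTCT (10.27%) were present in any of the 9 windows. CG and GGGCGG share letters, and these matches are descriptions of the sequence.

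CPS1, OTC and NAGS, which act in the mitochondrion, showed the widest differences of the 9 genes. CPS1 (ENSSSCG00000016159, chr15:113210038-113339086, 41 exons) is the step that commits ammonia to the cycle. In liver its CPM was 778 (65), 454 (67), 800 (69), 302 (71) and 503 (72), a mean of 568 ± 215 (SD, n = 5). In backfat, 3 libraries had 0 counts, backfat 67 had 1 count and backfat 69 had 29 counts, or 0.488 CPM. Nearly all the backfat signal of this gene therefore lay in a single library. The log2 fold change was 12.49 (SE 1.18, FDR 2.19e-06). Without backfat 69, 1 count remained in 4 backfat libraries, and the liver mean was 152089 times that level, with a 95% exact Poisson interval of 27297 to 6007184 that covers counting error only. In each library at 0, a floor of 3 counts limits what could have been seen, so that absence from backfat was not shown.

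OTC (ENSSSCG00000012236, chrX:34322398-34391711) makes citrulline from the product of CPS1. Its liver CPM was 444 (65), 264 (67), 427 (69), 546 (71) and 435 (72), a mean of 423 ± 101 (SD, n = 5). The backfat counts were 0, 0, 22, 0 and 1 in animals 65, 67, 69, 71 and 72. As for CPS1, backfat 69 held nearly all of them. The log2 fold change was 12.45 (SE 1.03, FDR 6.94e-07), and without backfat 69 the single remaining count gave a liver mean 113353 times higher (95% exact Poisson interval 20345 to 4477186). OTC lies within the span of RPGR on the other strand, and reads were counted without regard to strand, so that reads of the pair could not be separated where exons overlap. A pseudogene model also lies within OTC, on the same strand.

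NAGS (ENSSSCG00000024179, chr12:19170398-19173968) makes the activator of CPS1. It was detected at 162 (65), 62.3 (67), 191 (69), 71.9 (71) and 88.1 (72) CPM in liver, a mean of 115.2 ± 57.9 (SD, n = 5), and at 3, 2, 10, 5 and 4 counts in the 5 backfats in the same order, a mean of 0.0783 ± 0.0561 CPM. All backfat libraries thus held a few reads, with the most again in backfat 69. The log2 fold change was 10.54 (SE 0.55, FDR 2.02e-08).

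The carrier SLC25A15 and GLUD1 were also higher in liver, yet both were detected in every backfat, SLC25A15 at a much lower level than GLUD1. SLC25A15 (ENSSSCG00000009373, chr11:15494176-15551172) was at 82.0 (65), 72.4 (67), 86.5 (69), 71.7 (71) and 92.5 (72) CPM in liver and at 6.05, 3.81, 7.47, 7.70 and 6.42 CPM in backfat. The means were 81.0 ± 9.01 and 6.29 ± 1.55 (SD, n = 5), and the log2 fold change was 3.69 (SE 0.21, FDR 3.31e-08). This was the steadiest of the 9 genes among the livers. Its ends overlap 2 other gene models on the other strand. GLUD1 (ENSSSCG00000010368, chr14:87968850-88005375) had the highest mean CPM of the set in both tissues, with 1171 (65), 543 (67), 1516 (69), 1426 (71) and 1545 (72) in liver and 110 (65), 122 (67), 149 (69), 135 (71) and 140 (72) in backfat. Liver 67 was the low liver, and even it lay above every backfat. The means were 1240 ± 417 and 131 ± 15.1, and the log2 fold change was 3.24 (SE 0.32, FDR 3.16e-06).

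Among the cytosolic enzymes the order of the differences was ARG1, ASS1 and ASL. ASS1 (ENSSSCG00000005701, chr1:270531434-270586364) joins citrulline and aspartate. Its liver CPM was 456 (65), 603 (67), 477 (69), 527 (71) and 674 (72), and its backfat CPM was 11.5 (65), 10.3 (67), 25.8 (69), 10.7 (71) and 9.47 (72). The 4 other backfats lay close together and backfat 69 above them. The means were 548 ± 90.3 in liver and 13.5 ± 6.89 in backfat (SD, n = 5), with a log2 fold change of 5.34 (SE 0.35, FDR 1.00e-07), or 5.70 without backfat 69.

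ASL (ENSSSCG00000007738, chr3:16637481-16646869) splits argininosuccinate into arginine and fumarate. It was at 221 (65), 464 (67), 205 (69), 246 (71) and 186 (72) CPM in liver and at 17.5, 23.1, 16.9, 23.9 and 21.6 CPM in the backfats in the same order. Here liver 67 was the highest liver, the reverse of its place for GLUD1. The means were 265 ± 114 and 20.6 ± 3.19 (SD, n = 5), and the log2 fold change was 3.68 (SE 0.28, FDR 3.50e-07), or 3.42 without liver 67. A non-coding gene model lies across ASL on the other strand.

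ARG1 (ENSSSCG00000004195, chr1:32006035-32028983), the arginase that releases urea, was at 370 (65), 491 (67), 193 (69), 366 (71) and 409 (72) CPM in liver. In backfat it was at 5.14 (65), 0.763 (67), 0.706 (69), 0.270 (71) and 1.56 (72) CPM. Backfat 65 was well above the other backfats, while backfat 69 was not, unlike for CPS1, OTC and ASS1. The means were 366 ± 109 and 1.69 ± 1.99 (SD, n = 5), and the log2 fold change was 7.74 (SE 0.79, FDR 4.42e-06), or 8.78 without backfat 65. Backfat 65 also had the highest summed markers of the backfats for skeletal muscle (2 genes, 549 CPM against at most 172) and T cells (59.6 against at most 25.9). The red cell markers were highest in backfat 72 (577 CPM) and backfat 65 (463), the 2 backfats with the most ARG1, and among the livers they were highest in liver 67 (1283) and lowest in liver 69 (62.8), as ARG1 was. The muscle markers were lowest in backfat 72 (7.30). The part of these markers in the ARG1 level was not tested.

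ARG2 (ENSSSCG00000002294, chr7:91343987-91385911), the mitochondrial arginase, did not follow the others. It was at 2.69 (65), 2.30 (67), 1.66 (69), 1.30 (71) and 0.814 (72) CPM in liver and at 0.417 (65), 0.564 (67), 0.841 (69), 0.667 (71) and 0.532 (72) CPM in backfat, from 30 to 108 counts a library. The lowest liver lay below the highest backfat. With means of 1.75 ± 0.755 and 0.604 ± 0.160 (SD, n = 5), the log2 fold change of 1.54 (SE 0.38, FDR 0.00407) passed the FDR but not the fold threshold. Scaling by library size alone moved the median of all genes to -0.71, and ARG2 to 0.87 with an FDR of 0.0761, which did not pass. A pseudogene model lies within ARG2 on the other strand.

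Of the 2 arginases, the transcript pool in liver was almost wholly ARG1. Per length of exons, ARG2 made up 2.99, 1.94, 3.52, 1.48 and 0.837% of summed arginase in livers 65, 67, 69, 71 and 72, a mean of 2.15 ± 1.09% (SD, n = 5). In backfat its share was 25.6, 75.8, 83.5, 91.3 and 59.1%, a mean of 67.04 ± 26.1%. ARG2 was thus the larger part in 4 of 5 backfats and in 0 of 5 livers, although its own level was not higher in backfat. The low share in backfat 65 goes with the high ARG1 level there. With the length of the longest RefSeq transcript in place of all exons, the mean share was 0.818% in liver and 49.1% in backfat, where ARG2 was the larger part in 3 of 5 libraries.

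Set against each other per length (RPKM, the CPM divided by the exon length in kilobases), the genes formed different orders in the 2 tissues. In liver the mean level was 213 for GLUD1, 190 for OTC, 164 for ASL, 99.2 for ASS1, 93.7 for CPS1, 67.9 for NAGS and 59.6 for ARG1. Each of these 7 overlapped its neighbour over the 5 livers, although genes further apart in the order could be separate: the lowest OTC (118) and ASL (115.6) values lay above the highest NAGS value (112.8), and the lowest GLUD1 (93.1) and ASS1 (82.7) values above the highest ARG1 value (80.0). CPS1 was above NAGS in 5 of 5 livers. SLC25A15 at 12.7 and ARG2 at 1.21 lay below them without overlap. In backfat GLUD1 at 22.5, ASL at 12.8, ASS1 at 2.45 and SLC25A15 at 0.988 were each separate from the next. ARG2 at 0.417, ARG1 at 0.275, NAGS at 0.0461, OTC at 0.0347 and CPS1 at 0.0166 overlapped their neighbours. With the longest transcript as the length, GLUD1 stayed first in both tissues, and ASS1 rose to 306 in liver and 7.56 in backfat. In liver ARG1 (159) then lay ahead of NAGS (104), and NAGS ahead of CPS1 (95.2). In backfat ARG1 moved ahead of ARG2. The order of several genes thus depends on the length. The separations between single values above are for exon lengths and were not recomputed with the longest transcript.

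The make-up of the pathway's transcripts can be given the same way, with exon lengths. The longest transcript, which changed the order above, was not used for these shares. NAGS, CPS1 and OTC together took 38.7 ± 7.41% of the summed RPKM of the 9 genes in liver (range 28.2 to 46.0%) and 0.233 ± 0.322% in backfat (range 0.0536 to 0.805%). GLUD1 and ASL together took 42.0 ± 3.80% in liver and 89.3 ± 3.48% in backfat (SD, n = 5). The backfat pool was therefore mostly these 2 genes in every library, with a lowest share of 83.9%. As raw counts, the 9 genes were 0.0212 to 0.0247% of backfat libraries and 0.213 to 0.341% of liver libraries.

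The levels in backfat were also set beside the hepatocyte markers, each as a percent of its liver mean. The 8 markers (ALB, TTR, APOA1, SERPINC1, FGB, TF, AHSG and HNF4A) summed to 0.615% in backfat 69 and to 0.174 to 0.220% in the other 4 backfats after TMM scaling, with APOA1 the highest single marker in each. In backfat 69 the single markers ran from 0.101 to 3.31% with a median of 0.170%, while their medians in the other backfats were 0.00765 to 0.0112%. CPS1 at 0.0860% and OTC at 0.0875% were just below the range of the markers in backfat 69, and NAGS at 0.146% was within it. CPS1, OTC and NAGS, like the markers, were highest in this library among the backfats. In the other backfats CPS1 was at most 0.00269% and OTC at most 0.00406%. NAGS was at 0.0265 to 0.0783% there, on 2 to 5 counts, which lay above the marker medians. The part of hepatocyte RNA in the level of these genes was not tested. ARG1 was within the range of the single markers in backfat 69, at 0.193%, and at 0.0739 to 1.41% in the other backfats. ASS1 lay above all 8 markers in backfat 69, at 4.71%, and was at 1.73 to 2.09% in the others. SLC25A15 (4.71 to 9.50%), ASL (6.40 to 9.02%), GLUD1 (8.88 to 11.987%) and ARG2 (23.8 to 48.0%) were far above the summed markers in all 5 backfats. For ASL, backfat 69 was the lowest of the 5.

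**Figure D2:**
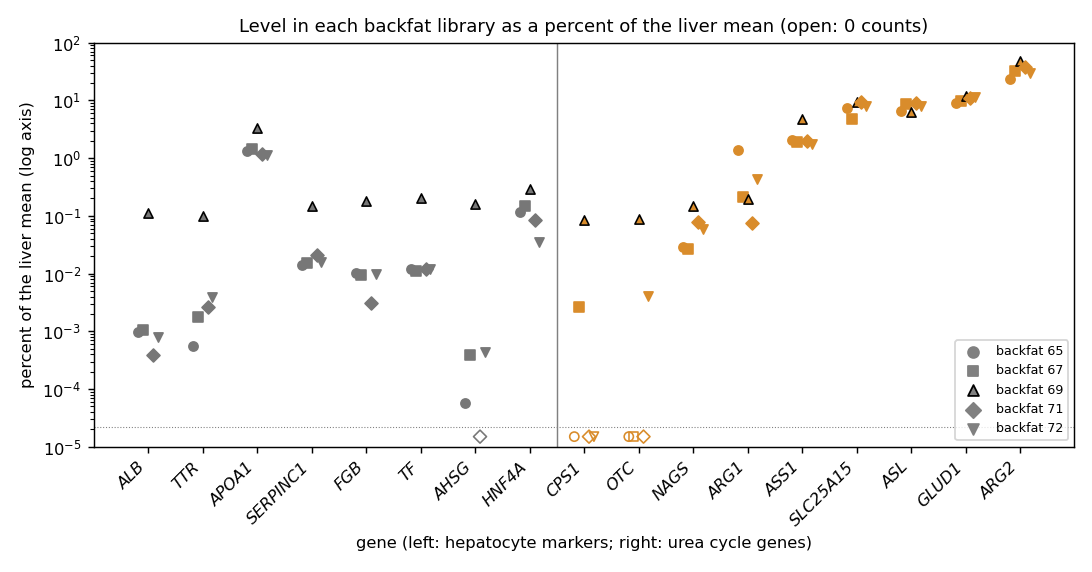
Level in each of the 5 backfat libraries as a percent of the gene's mean in 5 livers (log axis), for 8 hepatocyte markers in grey and the 9 urea cycle genes in orange; open symbols below the dotted line are 0 counts and backfat 69 has black edges. Backfat 69 is the highest point of every marker, and of CPS1, OTC, NAGS, ASS1, GLUD1 and ARG2, but the lowest of ASL.

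The 5 livers differed among themselves about as much for these genes as for others: the median coefficient of variation over livers was 33.6% for the 9 genes and 33.0% for all tested genes. Over the backfats it was 50.9% and 23.2%. The 50.9% is the value of ASS1, which was at 25.8 CPM in backfat 69 against at most 11.5 in the others. CPS1, OTC and NAGS had at most 29 counts in any backfat, so that their spread there includes counting error. The genes did not move together. In liver 67, whose hepatocyte markers were at 32.0% of the liver mean, GLUD1 was at 43.8%, NAGS at 54.1% and OTC at 62.3% of their liver means. In the same library ASS1 was at 110%, ARG2 at 131%, ARG1 at 134% and ASL at 175%. CPS1 (80.0%) and SLC25A15 (89.4%) lay between. CPS1 and NAGS were both high in liver 65 and liver 69 and low in liver 71, where OTC was highest at 129%. In liver 69, ARG1 was at 52.7%, its lowest. The part of the mitochondrial share, red cell markers and muscle markers of liver 67 in these differences was not tested.

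**Figure D3:**
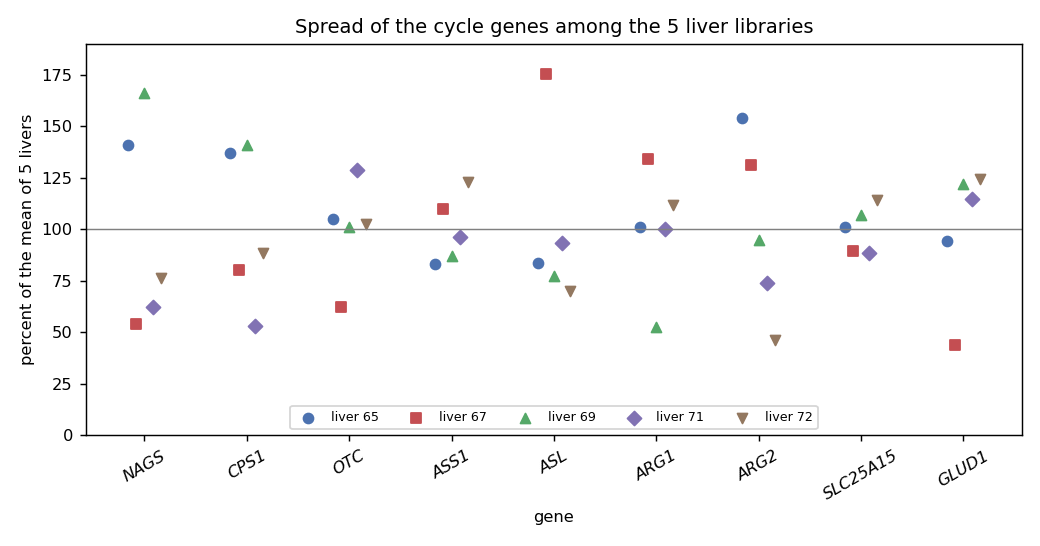
Level of each gene in the 5 liver libraries as a percent of its mean over these livers. Liver 67 is lowest for NAGS, OTC and GLUD1 and highest for ASL and ARG1, and SLC25A15 has the narrowest spread.

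The genes around the cycle were described with 5 further lists, together 63 genes, of which 52 were tested. The calls were 19 for liver and 7 for backfat, beside 11.2% and 11.1% of all tested genes, and the background for each list below is the same. Of the carriers and ammonia channels, which bring amino acids and ammonia across membranes, 15 of 19 were tested, with 6 called for liver, 3 called for backfat (all genes 11.2% and 11.1%) and a median log2 fold change of 0.12. The glutamine and neutral amino acid carriers SLC38A4 (0.541 ± 0.310 CPM in backfat and 354 ± 107 in liver) and SLC38A3 (1.46 ± 0.688 and 256 ± 98.4) rose by 9.35 and 7.44 log2 units in liver, at FDR 2.93e-08 and 8.46e-08. The glutamate carriers went in opposite directions. SLC1A2 was at 0.138 ± 0.0604 CPM in backfat and 2.93 ± 2.30 in liver, a log2 fold change of 4.37 (FDR 0.000112). SLC1A3 was at 64.8 ± 12.6 CPM in backfat and 0.0688 ± 0.0561 in liver, a log2 fold change of -9.85 (FDR 1.82e-09). The neutral amino acid exchanger SLC1A5 was also higher in backfat (294 ± 33.3 against 18.7 ± 5.20 CPM, log2 fold change -3.97, FDR 4.32e-08). SLC38A5, another glutamine carrier, had a log2 fold change of -2.14 (FDR 0.00467), which came out between -1.99 and -1.91, inside the fold threshold, without backfat 71 or without liver 65, 69 or 72, and at -2.95 without liver 67.

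Of 11 enzymes of glutamine, glutamate and transamination, 8 were tested, with 3 called for liver, 2 called for backfat (all genes 11.2% and 11.1%) and a median log2 fold change of 0.97. The glutaminase GLS2, which frees ammonia from glutamine, was at 97.0 ± 35.5 CPM in liver and 0.596 ± 0.155 in backfat (log2 fold change 7.34, FDR 1.38e-08). GLDC, the glycine decarboxylase that frees ammonia from glycine, rose by 6.43 log2 units in liver (FDR 3.46e-08). The alanine transaminase GPT2 rose by 6.03 (FDR 4.13e-08). OAT, which interconverts ornithine and glutamate semialdehyde, was higher in backfat at 117 ± 11.14 CPM, against 23.7 ± 6.67 in liver (log2 fold change -2.30, FDR 8.54e-07).

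Genes of the other fates of ornithine and arginine came next, with 14 of 17 tested, 5 called for liver, 2 for backfat (all genes 11.2% and 11.1%) and a median log2 fold change of 0.30. AGMAT, the mitochondrial enzyme named for splitting agmatine, was at 330 ± 104 CPM in liver and 0.0860 ± 0.122 in backfat (log2 fold change 11.93, FDR 6.30e-08), with 18 of its backfat counts in backfat 69 and 1 to 3 in each of the others. Its log2 fold change was 13.30 without backfat 69. GAMT, the last enzyme of creatine synthesis, was at 646 ± 237 and 22.8 ± 3.33 CPM (4.83, FDR 8.83e-08). The pair that degrades methylated arginines was split between the tissues. DDAH1 rose in liver by 4.02 log2 units (FDR 1.16e-07), and DDAH2 was at 17.1 ± 7.72 CPM in liver and 77.4 ± 6.16 in backfat (-2.17, FDR 3.49e-05). The endothelial nitric oxide synthase NOS3, which uses arginine, was at 14.5 ± 3.07 CPM in liver and 64.0 ± 10.2 in backfat (-2.14, FDR 9.75e-07). The 3 endothelial markers in the table summed to 59.6 to 127 CPM in liver and 629 to 1240 in backfat, and their part in the NOS3 difference was not tested.

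Bicarbonate supply and the regulators of CPS1 had 7 of 8 genes tested, 1 called for liver, 0 for backfat (all genes 11.2% and 11.1%, so that 1 of 7 is near the background) and a median log2 fold change of 1.14. The call was CA5A, the mitochondrial carbonic anhydrase that supplies bicarbonate to CPS1, at 68.0 ± 15.1 CPM in liver and 1.77 ± 0.501 in backfat (log2 fold change 5.26, FDR 1.97e-08). SIRT5, a deacylase known to act on CPS1, passed the FDR at a log2 fold change of 0.67 (FDR 0.00155). CAD, which makes carbamoyl phosphate in the cytosol for pyrimidines, had a log2 fold change of -0.92 (FDR 0.00273), opposite in sign to CPS1. UMPS and DHODH, listed with CAD for the pyrimidine route, had the other sign. UMPS was at 1.42 (FDR 8.68e-05) and DHODH at 0.35 (FDR 0.0648), which did not pass. SIRT5, CAD, UMPS and DHODH were named after their values were seen.

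All 8 genes listed as regulators of cycle genes were tested, with 4 called for liver, 0 for backfat (all genes 11.2% and 11.1%) and a median log2 fold change of 5.08. The glucagon receptor GCGR was at 1537 ± 442 CPM in liver and 0.537 ± 0.323 in backfat (log2 fold change 11.48, FDR 1.26e-08). The bile acid receptor NR1H4 had 2 counts over the 5 backfats, both in backfat 69, and its liver mean of 77.8 CPM was 12737 times that level (95% exact Poisson interval 3526 to 105175). FOXA2, a liver transcription factor, had 0 counts in every backfat and 33.6 ± 12.7 CPM in liver, which was at least 3668-fold higher when set against a floor of 3 counts over the backfats. By the FDR alone, 4 genes of this list were higher in liver and 2 in backfat (all genes 27% and 28%), and 2 were neither. The genes higher in backfat were CEBPA (log2 fold change -1.36, FDR 0.0195) and NR3C1 (-0.83, FDR 0.00338), both inside the fold threshold. They were named after their values were seen. With scaling by library size alone, 1 gene of this list was called higher in backfat.

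**Figure D4:**
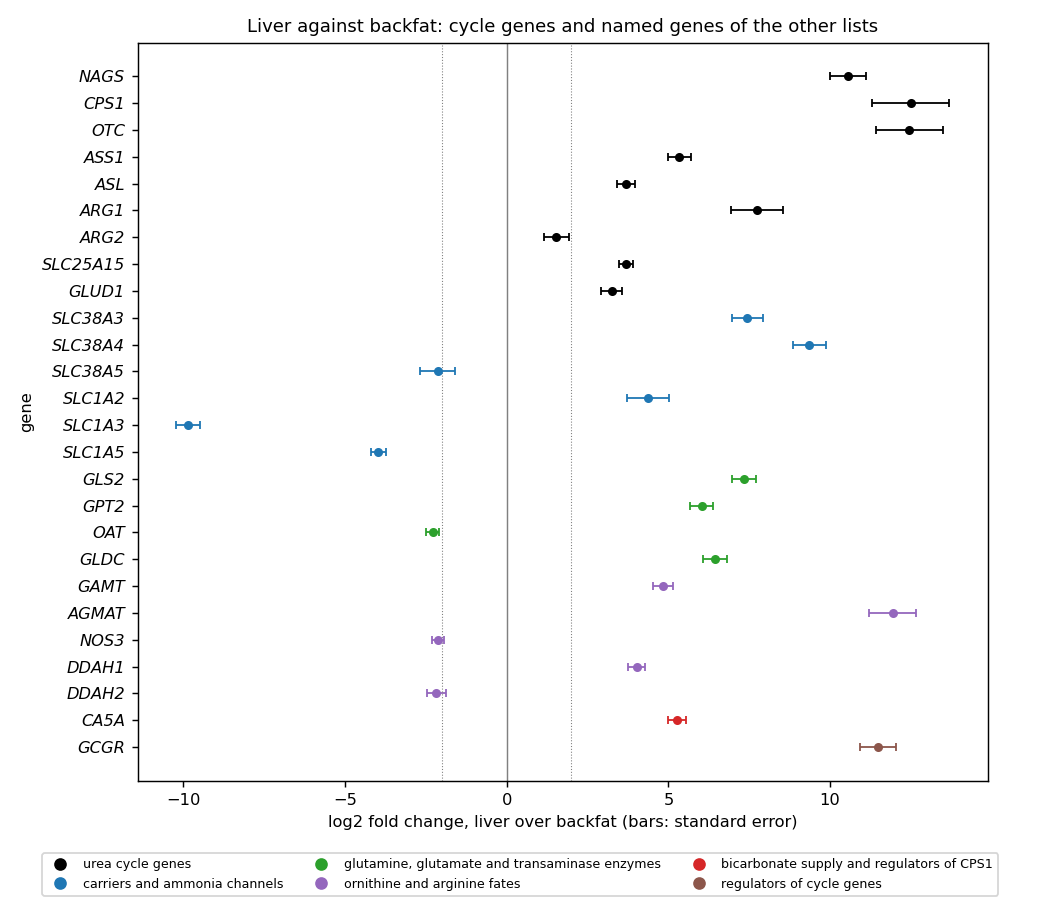
Log2 fold change, liver over backfat, for the 9 urea cycle genes and genes named from the 5 other lists, coloured by list. Bars are standard errors derived from the edgeR test statistic. Dotted lines mark 2 log2 units each way, and FOXA2 and NR1H4 are left out because they had at most 2 backfat counts. All 9 urea cycle genes lie on the liver side, from 1.54 for ARG2 to 12.49 for CPS1, while the carriers, glutamine enzymes and arginine genes lie on both sides.

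Over the 10 libraries, the genes whose profile lay closest to that of CPS1, measured by the root mean square difference of centred log2 CPM among 12739 named genes, were OTC (0.55), KNG1 (0.57) and FGB (0.59). KNG1 (kininogen) and FGB (fibrinogen beta chain) are plasma proteins made by hepatocytes, and FGB is one of the hepatocyte markers used here. The profiles share the libraries and the tissue contrast, so that this closeness is a description only.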

How the data were processed

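Poly(A) RNA was sequenced by the authors, aligned with HISAT2 to Sscrofa 11.1 and counted per gene with featureCounts 2.0.1 on Ensembl 99 annotation, without strand. The deposited values are raw counts of 5 backfat and 5 liver libraries, with the exon length of each gene. The bisulfite files held methylation by read position, not by gene, and were not used here.

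Genes were filtered with filterByExpr, scaled by TMM and tested with edgeR 4.0.16 (quasi-likelihood, Benjamini-Hochberg adjustment over all tested genes, R 4.3.3), with the thresholds of the study. The SE printed with a log2 fold change is its absolute value divided by the square root of the quasi-likelihood F statistic. It is thus derived from the test and is not a separate edgeR estimate. DESeq2 1.42.0, limma 3.58.1 (voom), other scalings and filters, and leaving out each library were alternatives. Column headers carry animal numbers that could not be tied to the replicate numbers of the labels. The same 5 numbers appear in both tissues and were taken as the same animals. The main test had tissue as its only term and did not use this pairing, which entered only in the alternative with the animal as a replicate block. Deviations from the tissue means correlated at 0.0490 to 0.238 within an animal, over 0.1 in 3 of 5. Between animals the highest correlation was 0.131, for backfat 69 with liver 72. In 4 of 5 backfats the best match was the liver of the same number. These correlations are weak, and the pairing rests on the headers. No library was a copy of another. Intervals and floors (3 counts) cover counting error only.

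Named genes were the cycle genes, the 3 largest calls in each direction per list, and the 3 profiles nearest to CPS1, except results that are not reported here. The cycle genes and lists were chosen with earlier results of these data known. Upstream sequences were read from the RefSeq Sscrofa11.1 genome, and figures were drawn with matplotlib 3.10.9.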

Additional observations from a re-analysis of the deposited data

Results flagged for a closer look

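A library was singled out where its distance to the nearest of the other 4 exceeded 0.71 of the range of its tissue. Of 60 gene and tissue groups looked at, 10 were singled out. For normally distributed values chance alone gives about 1 in 20, but the rule was applied to CPM, which need not be so distributed. Groups with few counts, such as backfat CPS1, OTC, AGMAT and NR1H4, can be singled out by the reads of a single library. The rate of 1 in 20 cannot be taken as the background for such groups, and whether 10 of 60 exceeds chance was not tested. The genes are not independent, and several flags fall on the same library.

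Backfat 69 was high for 6 genes: CPS1 at 0.488 CPM, OTC at 0.370, ASS1 at 25.8, AGMAT at 0.303, GCGR at 1.09 and NR1H4 at 0.0336. The NR1H4 value rests on 2 counts. This library also had the highest hepatocyte marker sum of the backfats, and the part of that in the values was not tested. ARG1 was high in backfat 65, at 5.14 CPM against at most 1.56 in the others. GLS2 was low in backfat 72, at 0.326 CPM against at least 0.613. In liver, ASL at 464 CPM and SLC38A5 at 9.67 CPM were high in liver 67, the library with the largest mitochondrial share.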

How the results depend on the processing

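Over all genes, the calls were 1819 for liver and 1814 for backfat. With no filter on low counts 2729 were higher in liver. With at least 10 counts in every library these fell to 981 and 871, the cycle genes called fell from 8 to 5, because NAGS, CPS1 and OTC were no longer tested, and the regulators called higher in liver fell from 4 to 1. With library size alone, 2874 genes were higher in backfat, 31.8% of calls were higher in liver in place of 50.1%, and 1 regulator was called higher in backfat in place of 0. The liver share of ARG2 was 0.818% with the longest transcript. No result reversed. For the 9 cycle genes, 168 recomputed fold changes left every call unchanged where the gene was tested, although the FDR of ARG2 was 0.0761 with library size alone. Of 542 recomputed fold changes of the named genes, 4 lost their call, all of SLC38A5. With the animal as a replicate block, no call of a cycle gene changed, with ARG2 at 1.45 (FDR 0.0168), and 1757 and 1913 genes were called for liver and for backfat. Pairing came from the column headers. Without both backfat 69 and liver 67, chosen after seeing the data, 1832 and 2066 genes were called. Low backfat counts limit the fold changes of CPS1, OTC and NAGS, and GLUL was not analysed here.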

Other observations

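Several genes around the cycle come as pairs of related forms, and their make-up per length was compared between the tissues. The 5 pairs were chosen after the values of their members were seen, so that they are descriptions with no test. For the glutamate carriers, SLC1A2 was 96.2 ± 2.20% of the SLC1A2 and SLC1A3 sum in liver and 0.174 ± 0.0930% in backfat (SD, n = 5 in each). DDAH1 was 71.3 ± 10.99% of the DDAH sum in liver and 3.30 ± 0.910% in backfat. In these 2 pairs the main form differed between the tissues, with no overlap of libraries.

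For the cationic amino acid carriers, SLC7A2 was 96.7 ± 0.861% of the SLC7A2 and SLC7A1 sum in liver and 51.8 ± 9.93% in backfat. The mitochondrial aspartate and glutamate carrier SLC25A13, which supplies aspartate to ASS1, was 89.1 ± 7.596% of the SLC25A13 and SLC25A12 sum in liver and 44.2 ± 6.70% in backfat. The aspartate transaminases kept nearly the same make-up, with GOT1 at 31.1 ± 2.85% of the pair in liver and 28.0 ± 2.15% in backfat.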
